A study of Mus musculus with 8 samples.

Results

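The BCL2 family decides whether the outer membrane of the mitochondrion stays closed or is opened to release cytochrome c, the step that commits many cells to apoptosis. The genes described here are the pro-survival members Bcl2, Bcl2l1 (BCL-XL) and Mcl1, the pore-forming effectors Bax and Bak1, and the BH3-only members Bid, Bad, Bcl2l11 (BIM) and Bbc3 (PUMA). All probe sets annotated to one of these 9 genes and to no other gene were taken, on all 8 arrays of the study. They were 28 of 45101 probe sets and covered 8 of the 9 genes, of 18193 genes named on the array. No probe set carried the symbol Bax alone in the annotation used, so Bax was not analysed here.

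The study compared RNA of exosomes, vesicles shed by cells into the fluid around them, with RNA of the cells that released them. The exosome group held 4 arrays of RNA from exosomes of MC/9, a murine mast cell line, and the cell group held 4 arrays of RNA from MC/9 cells. Both groups came from cells grown in medium with fetal bovine serum and a concanavalin A-stimulated rat T cell supplement, with no other treatment named, and exosomes were taken from the supernatant by steps of centrifugation, a filtration and ultracentrifugation. The vesicles of 1 cell line were studied, and RNA carried in by serum or supplement cannot be told apart from RNA of the cells by these arrays. Per the labels the 4 samples of each group are biological replicates, though no source used states that each had its own culture. The p-values then measure only the spread between these arrays, which may be technical, and the number of arrays limits their precision.

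As background, pro-survival members hold BAX and BAK1 in check, and BH3-only members either block the pro-survival members or activate BAX and BAK1 directly. Mouse mast cells depend on cytokines and on KIT signalling to live. BIM and PUMA take part in their death when these signals are withdrawn, and MCL1 is a short-lived protein that many blood cell types need for survival. BID joins the death receptor arm to the mitochondrion once caspase-8 has cut it, and BAD is held inactive by phosphorylation and 14-3-3 proteins.

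The 2 genes with a probe set whose mean cell signal (geometric) lay above the exosome detection floors were Mcl1 and Bid, and the stretch of 250 bases before a RefSeq transcription start is shown for each, since the results turn on them. The sequences are from RefSeq (GRCm38.p6), run 5′ to 3′ on the strand of the gene, and carry in capitals each match to the GC box, searched as GGGCGG and as its reverse complement CCGCCC. Mcl1 is at chr3:95658471-95658720 on the + strand and Bid at chr6:120916825-120917074 on the − strand.
Mcl1: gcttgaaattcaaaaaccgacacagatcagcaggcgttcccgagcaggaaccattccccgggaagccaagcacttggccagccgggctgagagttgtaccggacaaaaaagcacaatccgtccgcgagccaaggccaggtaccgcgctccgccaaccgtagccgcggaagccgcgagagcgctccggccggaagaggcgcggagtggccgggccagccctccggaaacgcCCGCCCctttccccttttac
Bid: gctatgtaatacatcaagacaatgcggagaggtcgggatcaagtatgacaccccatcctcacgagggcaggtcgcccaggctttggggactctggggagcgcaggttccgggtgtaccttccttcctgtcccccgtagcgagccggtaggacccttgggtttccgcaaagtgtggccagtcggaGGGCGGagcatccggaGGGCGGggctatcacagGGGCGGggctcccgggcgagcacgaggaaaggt
The Mcl1 stretch held 1 match and the Bid stretch held 3, and their GC contents were 64.4% and 63.6%, beside a median of 52.4% over all 32841 such stretches. The distance from the end of the stretch to the start of the RefSeq gene was -1776 bases for Mcl1 and -237 for Bid. Negative values mean that the end lies inside the annotated gene. The 9 genes had 15 stretches in the table, of which 10 held a GC box, as did 32.75% of all stretches. Genes can have several stretches, and a pair of those of Bbc3 overlaps, so the 15 are not separate promoters. A CCAAT box (CCAAT or ATTGG) was found in 4 of the 15 and in 33.86% of all. A TATA box (TATAAA or TTTATA) was found in 0 of the 15 and in 12.37% of all, and the cAMP response element TGACGTCA in 0 of the 15 and in 1.547% of all. No base of the 15 stretches belonged to matches of 2 motifs. These matches describe the letters of the DNA and nothing in the array data bears on them.

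The deposited signals were scaled so that each array has the same trimmed mean, 100, and the arrays of the 2 groups differed in what that scaling did. Probe sets of genes that mast cells are not known to use (146 of them, for smell, taste and pheromone receptors, beta-defensins and proteins of hair keratin) had a median signal of 67.4 ± 5.42 on exosome arrays, against 2.38 ± 0.497 on cell arrays (SD, n = 4 each). The detection floor of an array, the 95th percentile of these signals, was 248 to 317 on exosome arrays and 10.5 to 16.6 on cell arrays. Above their floors lay 1807 to 3774 probe sets on exosome arrays and 20240 to 22635 on cell arrays. Of 12 mast cell markers measured, 9 passed the floor of every cell array and 0 that of every exosome array. On cell arrays Tpsab1 passed on 1, Mcpt1 on 0 and Mcpt4 on 2, the Mcpt4 signals being 61.3 and 62.9 in batch 1 and 0.717 and 0.8 in batch 2. On exosome arrays Fcer1a and Gata2 passed on 2 each, Ms4a2, Cpa3 and Srgn on 1 each, and 7 of the 12 markers on none. The summed signal of the 12 markers was 1583 to 1983 on exosome arrays and 42851 to 47260 on cell arrays. Of 6 T cell, 3 B cell, 4 fibroblast and 2 erythroid markers 0 passed the floor of every cell array, and of 4 macrophage markers Csf1r alone did, at 23.9 ± 3.5 (SD, n = 4). The T cell markers summed to 273 to 393 on exosome arrays and to 21.4 to 37.9 on cell arrays, and 0 of the 6 passed the floor of any exosome array. The B cell markers summed to 269.6 to 498 on exosome arrays and 7.03 to 13.1 on cell arrays, the fibroblast markers to 361 to 592 on exosome arrays and 15.7 to 27.5 on cell arrays, and the macrophage markers to 469.8 to 706 on exosome arrays and 42.4 to 57.5 on cell arrays. The erythroid markers summed to 10.0 to 39.8 on exosome arrays and 1.80 to 15.5 on cell arrays. Of these markers 2 of 3 B cell, 3 of 4 fibroblast, 4 of 4 macrophage and 2 of 2 erythroid ones passed the floor of no exosome array. Such sums include the background signal, which was higher on exosome arrays. Both macrophage genes tested, Csf1r (log2 difference 2.72) and Adgre1 (2.97), passed as higher in exosomes, each under the floor on every exosome array, and the part of such RNA in the results was not tested. Replicates 1 and 2 of both groups were hybridised on other days than replicates 3 and 4, and these sets are called batch 1 and batch 2.

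BCL2 family RNA was detected in the cells and, at these floors, hardly at all in the exosomes. On cell arrays 96 of 112 member readings (28 probe sets on 4 arrays), or 85.7%, were above the floor, beside 44.9% to 50.3% of all probe sets. Of the 28 probe sets 22 passed it on each cell array, so that each of the 8 measured genes had at least 1 such probe set. On exosome arrays 4.01% to 8.38% of all probe sets were above the floor, which 5% of unexpressed ones pass by construction. Of the member readings there, 2 of 112 were above it, which is 1.79%. These were Bcl2l11 1456005_a_at on exosome replicate 1, at 268, and Bbc3 1423315_at on exosome replicate 2, at 354. Over all probe sets, 40% passed the floor of every cell array, and of those 81.4% were above it on no exosome array. A signal under a floor bounds the level but does not show that the RNA was absent. With fewer vesicles or less RNA per vesicle, such bulk signals would look the same, and these cannot be told apart.

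**Figure D1:**
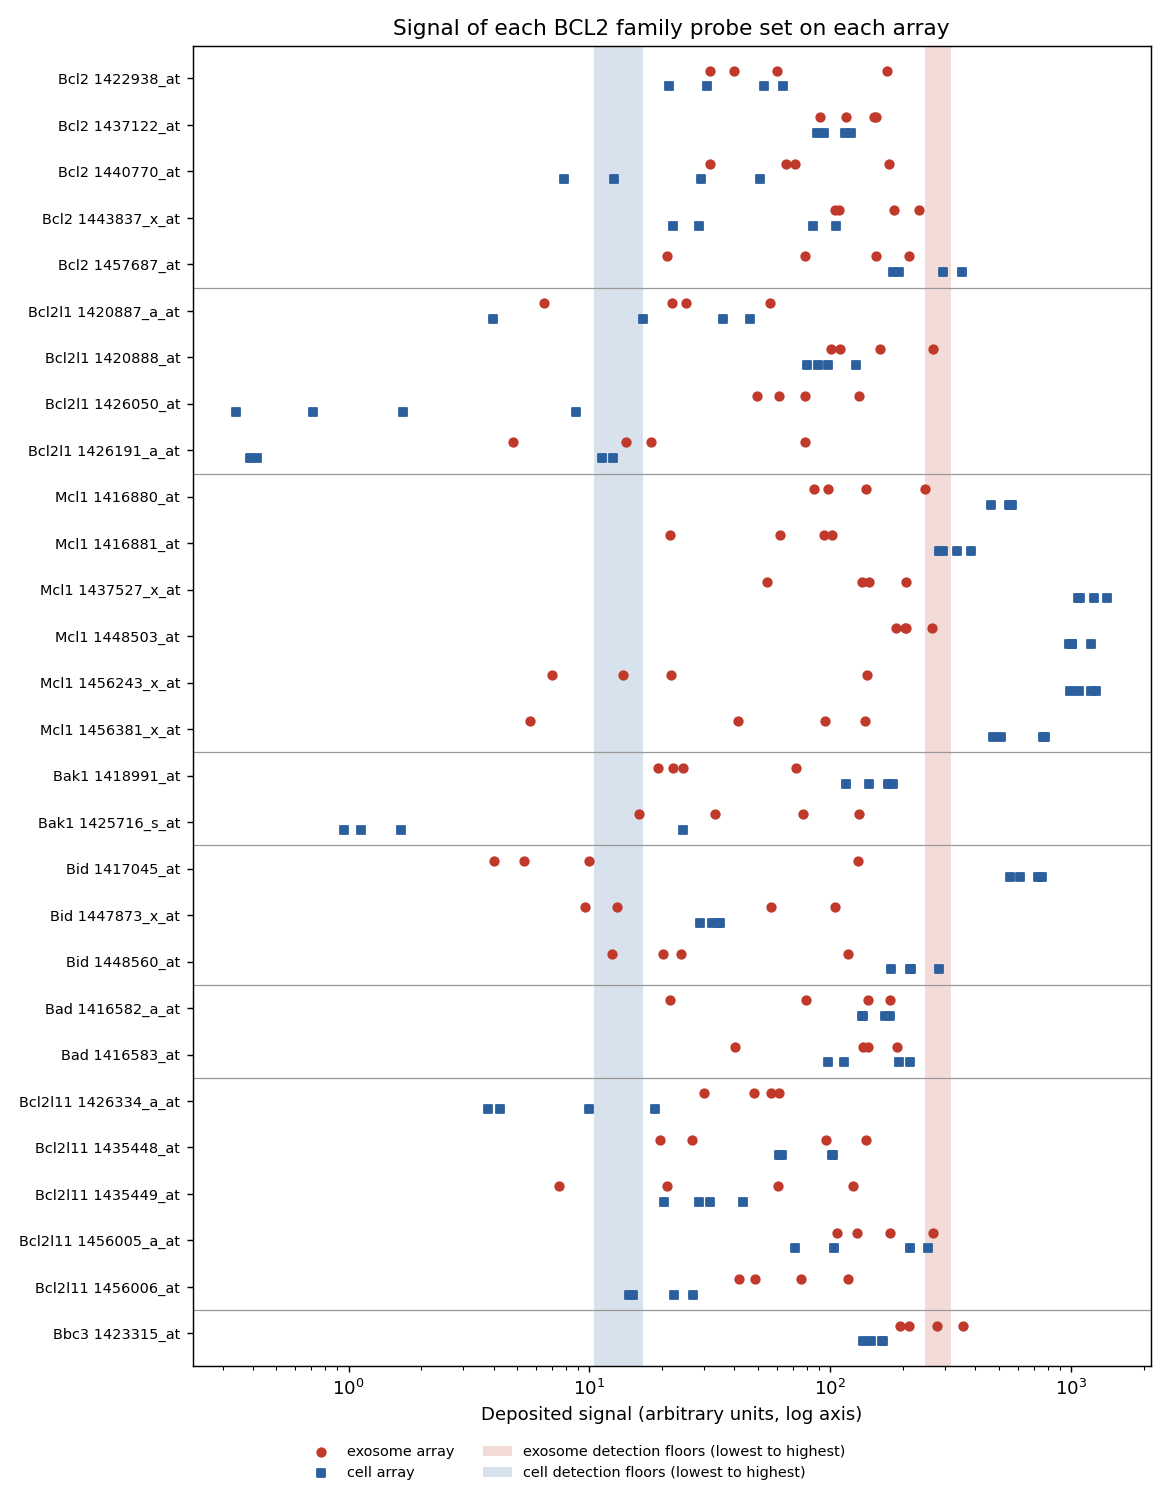
Deposited signal (arbitrary units, log axis) of each of the 28 BCL2 family probe sets on 4 exosome arrays (red points) and 4 cell arrays (blue squares); the bands run over the lowest to highest detection floor of each group, 248 to 317 for exosomes and 10.5 to 16.6 for cells. By their mean cell signal, the 6 Mcl1 probe sets and Bid 1417045_at lie to the right of the exosome floors, and 2 exosome points lie past their own array's floor.

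For the comparison, log2(signal + 4) was fitted with limma over 20199 probe sets that were above the floor on at least 3 of 4 arrays of a group, and p-values were adjusted by Benjamini-Hochberg, with calls made under 0.05. Of the 28 member probe sets 24 were tested. All 24 entered through the cell arrays, so counts over those tested describe them and support no direction. Of the 24, 9 passed as lower in exosomes, beside 37.6% of all probe sets tested, and 2 passed as higher, beside 17.9%. The other 13 did not pass. The median difference over the 24 was -0.47 and over all tested -0.69, on the log2 scale. In 9 of the 24 every exosome array was below every cell array, beside 37.2% of all tested, and in 2 every exosome array was above every cell array, beside 16.5%. Within batch 1 8 passed as lower, beside 30.3% of all, and 0 as higher, beside 13.5%. Within batch 2 8 passed as lower, beside 31.6%, and 1 as higher, beside 19.7%.

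Mcl1 fell in exosomes by each of its 6 probe sets, and it was the one gene with more than 1 probe set on which all passed. On 1437527_x_at, whose suffix marks probes that may bind other transcripts too, the signals were 205, 145, 54.7 and 135 on exosome arrays, against 1082, 1069.8, 1247 and 1407 on cell arrays. The groups did not overlap and each exosome signal was under its floor. The log2 difference was -3.25 (SE 0.39, adjusted p = 6.15e-05, limma), and taking the exosome floors in place of the dim signals, Mcl1 was at least 4.32-fold lower by this probe set. Such bounds divide the geometric mean of the cell signals by that of the exosome floors, and they hold for the deposited scaling only.

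The Mcl1 probe set 1448503_at, with no suffix for shared probes, had the closest exosome signals, 188, 205, 264 and 207, against 1004, 979.7, 1007 and 1206 on cell arrays. The lowest cell signal was above the highest exosome signal with a wide gap. Its log2 difference was -2.27 (SE 0.26, adjusted p = 4.39e-05, limma), with a bound of at least 3.78-fold lower. Under quantile normalization the difference was smaller, -1.27 (adjusted p = 0.0124). By 1416880_at exosome arrays had 247, 140.4, 98 and 85.8, against 554, 565, 565 and 463 on cell arrays, a log2 difference of -1.998 (SE 0.37, adjusted p = 0.000955, limma) and at least 1.94-fold lower.

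The other Mcl1 probe sets, like those above, varied more relative to their mean among exosome arrays than among cell arrays. On 1456243_x_at the exosome signals were 142, 21.8, 13.7 and 6.98, against 984, 1073, 1212 and 1267 on cell arrays, so that exosome replicate 1 stood far above the other three and still far below the cells. On 1456381_x_at they were 139, 94.8, 41.4 and 5.65, against 473, 509, 762 and 781. On 1416881_at they were 94, 21.5, 62.1 and 102, against 334, 384, 283 and 294. No group overlapped with the other on any of these. The log2 differences were -5.27, -3.63 and -2.33 in that order (adjusted p = 9.47e-05, 0.00155 and 0.00172, limma), and the bounds at least 4.08-fold, 2.23-fold and 1.16-fold lower. The larger of these differences rest on exosome signals well under the floor, so the bounds say how much of them lies above it. Within batch 1 and within batch 2 all 6 Mcl1 probe sets passed as lower, with 1437527_x_at at -2.61 in batch 1 and -3.88 in batch 2.

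Shisa5, Atp5g2 and Sec22b were the named genes whose pattern over the 8 arrays was most like that of Mcl1 1437527_x_at. Likeness was the root mean square difference of log2 values less their own mean, and was 0.0891 for Shisa5, 0.121 for Atp5g2 and 0.149 for Sec22b. Shisa5 1437503_a_at, the nearest, had 324, 254, 100 and 208 on exosome arrays, against 1734, 1908, 2191 and 2183 on cell arrays.

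Bcl2, the founding pro-survival member, showed no common direction over its 5 probe sets, none of which was above the floor on any exosome array. On 1457687_at the signals were 155, 212, 78.6 and 20.9 on exosome arrays, against 193, 183, 294 and 351 on cell arrays. Exosome replicate 2 lay among the cell signals, and the other exosome arrays lay below all of them. Its log2 difference was -1.45 (95% CI -2.82 to -0.07) and did not pass (adjusted p = 0.0695, limma), with -0.05 within batch 1 and -2.84 within batch 2. Without exosome replicate 2 it passed as lower, at -1.86 (adjusted p = 0.0266), and without exosome replicate 4 it was -0.82 (adjusted p = 0.132). It passed as lower under 4 of 6 scalings, the exceptions being the deposited one and quantile normalization.

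Bcl2 1443837_x_at passed in the other direction, as higher in exosomes. Its signals were 109, 184, 105 and 232 on exosome arrays, against 105, 84.7, 28.6 and 22.3 on cell arrays, so that exosome replicate 3 lay just below cell replicate 1 and the groups overlapped. This gave a log2 difference of 1.51 (SE 0.55, adjusted p = 0.0382, limma), with 0.57 within batch 1 and 2.45 within batch 2. The call was lost without exosome replicate 2 (adjusted p = 0.0749), exosome replicate 4 (0.0887), cell replicate 3 (0.11) or cell replicate 4 (0.114), and the direction turned with scaling to hybridisation controls (-2.35) or poly-A controls (-1.58). All 4 exosome signals were under the exosome floor, and with the background median subtracted the difference was 0.57 (adjusted p = 0.528).

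On the remaining Bcl2 probe sets no difference passed. On 1440770_at the signals were 65.6, 175, 71 and 31.8 on exosome arrays and 29.2, 51.2, 12.6 and 7.87 on cell arrays, with overlap, and the log2 difference of 1.63 (95% CI 0.21 to 3.05) had an adjusted p of 0.0503 (limma). It passed as higher with the hybridisation batch as a block (adjusted p = 0.0188), without exosome replicate 4 (0.0249) or without cell replicate 2 (0.0315), and its direction turned to -1.69 with scaling to hybridisation controls. The log2 difference was 0.59 (95% CI -0.71 to 1.89) on 1422938_at and 0.27 (95% CI -0.52 to 1.05) on 1437122_at. On 1437122_at, the steadier of the pair, exosome arrays had 117, 155, 91 and 152, and cell arrays had 115, 122, 94.1 and 88.2.

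Bcl2l1, whose long form BCL-XL protects cells and whose short form BCL-XS does not, had 4 probe sets, of which 2 were tested and neither passed. On 1420888_at the signals were 109.8, 267, 161 and 101 on exosome arrays and 97.6, 89.1, 128 and 79.8 on cell arrays. The exosome signals reached higher but overlapped with those of the cells, and the log2 difference was 0.59 (95% CI -0.31 to 1.49). On 1420887_a_at, whose suffix marks probes common to several transcripts of the gene, it was 0.13 (95% CI -1.42 to 1.69). The probe sets 1426050_at and 1426191_a_at were above the floor on 0 arrays of either group, so no level was measured by them. Their signals of 49.8 to 131 and 4.81 to 78.6 on exosome arrays, against 0.342 to 8.78 and 0.391 to 12.5 on cell arrays, all lay under the floors.

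Bak1, the effector that sits in the mitochondrial outer membrane, passed as lower in exosomes on the 1 probe set that was tested, by signals that lay under the exosome floors in both groups. On 1418991_at the signals were 22.2, 24.4, 19.2 and 72.3 on exosome arrays, against 182, 144, 174 and 116 on cell arrays. The groups did not overlap, and exosome replicate 4 was the highest of its group. Bak1 had a log2 difference of -2.20 (SE 0.48, adjusted p = 0.00259, limma), with -2.61 within batch 1 and -1.80 within batch 2, where it did not pass (adjusted p = 0.0997). The cell signals, though above the cell floors, were under the exosome floors, so no fold bound can be given and the exosome level is known only to lie under those floors. With low signals raised to the floor the difference was 0.85 (adjusted p = 0.000501), which follows from the higher exosome floors. The second probe set, 1425716_s_at, whose suffix marks probes shared with other genes, was above the floor on 1 cell array and was not tested.

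Bid, the BH3-only protein cut by caspase-8, fell in exosomes by 1417045_at and passed as lower, without a bound, on 1448560_at, while 1447873_x_at did not pass. On 1417045_at the signals were 5.37, 130.2, 4.04 and 9.99 on exosome arrays, against 559, 611, 729 and 755 on cell arrays. Exosome replicate 2 was high within its group and still under every cell signal. The log2 difference was -5.09 (SE 0.78, adjusted p = 0.000299, limma), with a bound of at least 2.38-fold lower. Within batch 1, which holds exosome replicate 2, it was -4.05 and did not pass (adjusted p = 0.0788), and within batch 2 it was -6.14.

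On Bid 1448560_at the exosome signals were 12.4, 20.2, 119 and 24, against 215, 282, 216 and 178 on cell arrays, and here exosome replicate 3 was the high one. This probe set had a log2 difference of -2.71 (SE 0.60, adjusted p = 0.00287, limma), with -3.65 within batch 1 and -1.77 within batch 2, where it did not pass (adjusted p = 0.133). The cell signals were mostly under the exosome floors, so this probe set gives no bound, and with low signals raised to the floor the difference was 0.32. On 1447873_x_at the cell signals were low and close together, 34.5, 32.2, 28.8 and 34.7, while those of the exosomes, 13, 104, 56.7 and 9.56, lay on both sides of them. That log2 difference was -0.05 (95% CI -1.52 to 1.42), an interval too wide to show either likeness or a change.

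**Figure D2:**
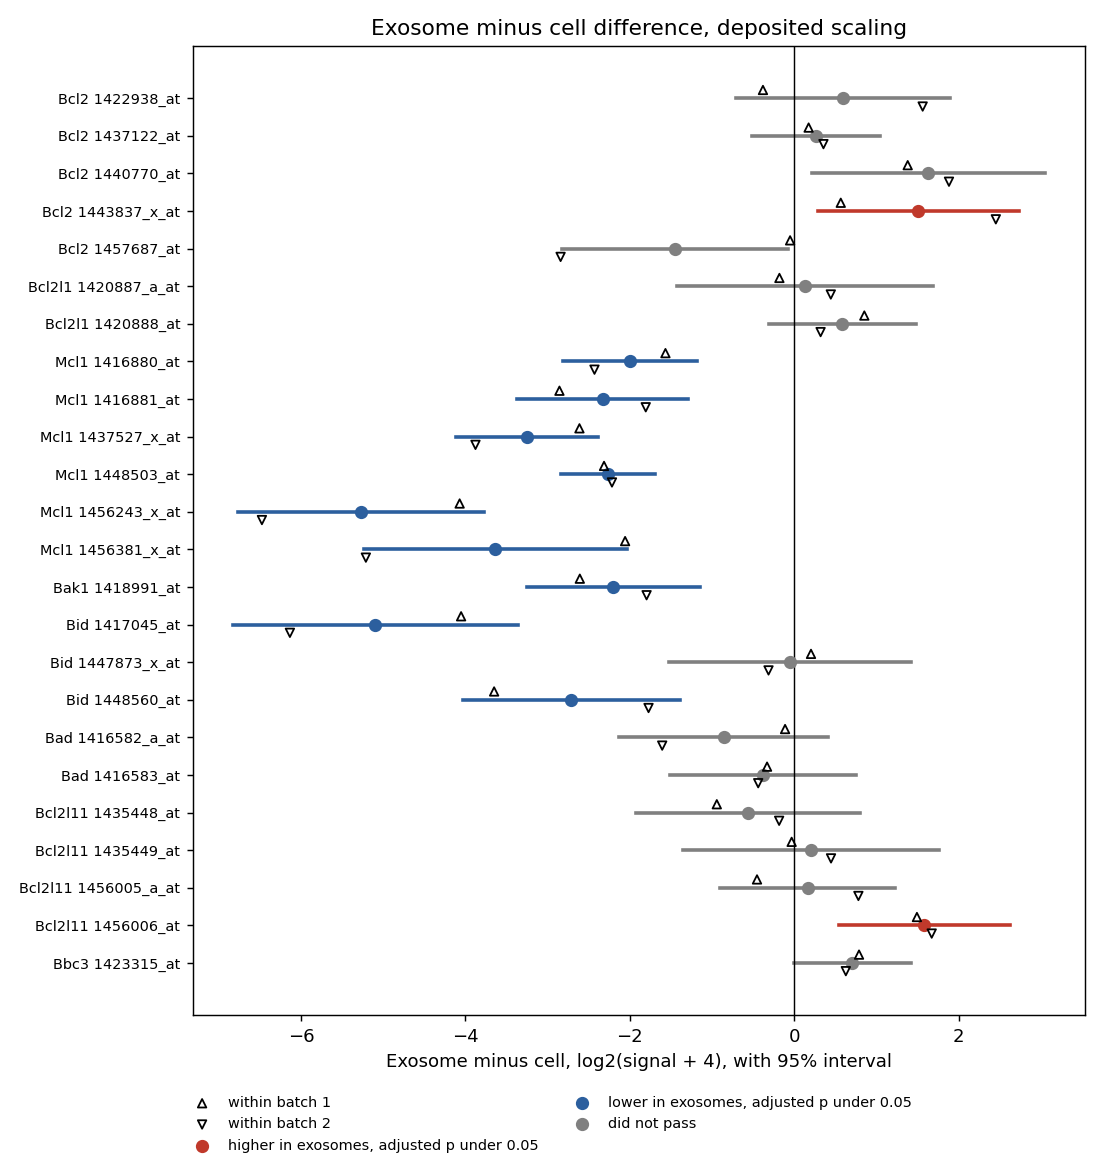
Exosome minus cell difference of log2(signal + 4) with its 95% confidence interval for the 24 tested BCL2 family probe sets (blue, called lower in exosomes; red, called higher; grey, not passing), with triangles for the difference within each batch. The 6 Mcl1 probe sets lie between -5.27 and -1.998, 2 of 3 Bid probe sets at -5.09 and -2.71 and Bak1 at -2.20, while most intervals of Bcl2, Bcl2l1, Bad, Bcl2l11 and Bbc3 include 0 or nearly reach it.

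Bad, the BH3-only protein that survival kinases keep phosphorylated, did not pass on either probe set. On 1416582_a_at the signals were 144, 176, 79.2 and 21.5 on exosome arrays and 168, 177, 136 and 137 on cell arrays. The exosome signals of batch 1 lay among those of the cells and the exosome signals of batch 2 below them, and the log2 difference was -0.86 (95% CI -2.13 to 0.42). On 1416583_at it was -0.38 (95% CI -1.52 to 0.75), with 189, 136, 143 and 40.3 on exosome arrays and 192, 214, 113 and 97.8 on cell arrays.

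Bcl2l11, which encodes BIM, passed as higher in exosomes on 1 of 4 tested probe sets, and only by signals under the exosome floor. On 1456006_at they were 48.7, 119, 41.7 and 75.8 on exosome arrays, against 22.5, 26.9, 15.2 and 14.6 on cell arrays. The groups did not overlap, and the log2 difference was 1.58 (SE 0.47, adjusted p = 0.015, limma). It was 1.49 within batch 1 and 1.67 within batch 2, passing in neither (adjusted p = 0.112 and 0.0507). The call was lost without cell replicate 3 (adjusted p = 0.0544) or cell replicate 4 (0.0541), and the direction turned under quantile normalization (-0.65), with the background median subtracted (-0.91) and with scaling to poly-A (-1.24) or hybridisation controls (-1.72). The exosome background median of 67.4 was close to these signals.

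The brighter Bcl2l11 probe set, 1456005_a_at, had 268, 107, 176 and 129 on exosome arrays and 215, 254, 103 and 71.6 on cell arrays. Here the groups overlapped throughout and the log2 difference was 0.16 (95% CI -0.90 to 1.23). Among the cells the arrays of batch 1 had the higher signals, with a log2 difference of batch 2 minus batch 1 of -1.40 that did not pass (adjusted p = 0.412, limma). The differences on 1435448_at, -0.56 (95% CI -1.93 to 0.80), and 1435449_at, 0.21 (95% CI -1.35 to 1.77), did not pass either, and 1426334_a_at was above the floor on 1 cell array and was not tested.

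Bbc3, which encodes PUMA and is a p53 target, had 1 probe set, 1423315_at, and the highest exosome reading relative to a floor among the measured members. Its signals were 195, 354, 212 and 278 on exosome arrays, against 137, 165, 164 and 148 on cell arrays. Every exosome signal was above every cell signal, and replicate 2 was above the exosome floor. The log2 difference was 0.71 (95% CI 0.00 to 1.42), which did not pass (adjusted p = 0.0821, limma). It was 0.79 within batch 1 and 0.63 within batch 2, and it passed without exosome replicate 1, at 0.83 (adjusted p = 0.0427). Scaling to hybridisation controls turned it to -3.36 and scaling to poly-A controls to -2.57.

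The sign of the difference depended on how the arrays were scaled for 10 of the 24 member probe sets and was negative under each of 6 scalings for 14. The 9 probe sets called lower, 6 of Mcl1, 2 of Bid and 1 of Bak1, were called lower under each of them. The scalings were the deposited one, quantile normalization, scaling to the probe sets that pass the floor of all 8 arrays, to hybridisation controls, to poly-A controls, and subtraction of each array's background median. The 2 probe sets called higher were called higher under none of quantile normalization, both control scalings and background subtraction. Over the 6 scalings 9, 13, 10, 24, 21 and 13 of 24 member probe sets were called lower, in the order just given, beside 37.6%, 49.7%, 39.4%, 94.4%, 79.2% and 53.4% of all probe sets tested. The numbers called higher were 2, 0, 1, 0, 0 and 0, beside 17.9%, 7.74%, 16.4%, 1.28%, 1.49% and 8.04%. The median over all tested probe sets moved with the scaling, to -1.66 under quantile normalization, -2.47 under background subtraction, -3.30 with poly-A controls and -3.83 with hybridisation controls.

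**Figure D3:**
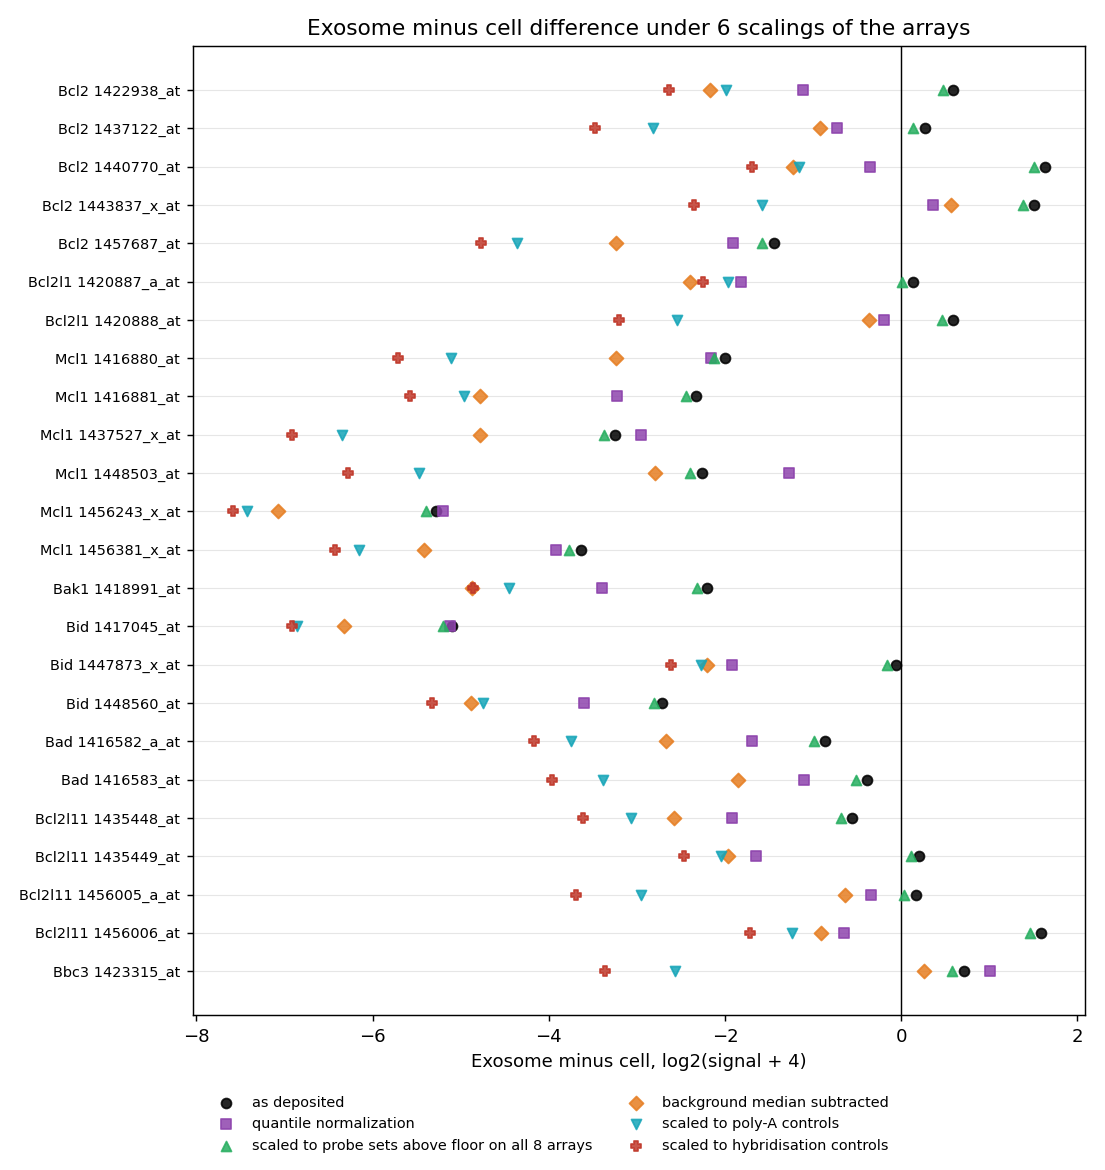
Exosome minus cell difference of log2(signal + 4) of the 24 tested BCL2 family probe sets under 6 scalings of the arrays, 1 symbol for each. Mcl1, Bak1 and 2 Bid probe sets stay left of 0 under every scaling, while Bcl2l11 1456006_at runs from -1.72 to 1.58 and Bbc3 1423315_at from -3.36 to 1.01.

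The difference between groups was also compared between batches. Of 20199 probe sets, 746 differed in their exosome minus cell difference between batch 2 and batch 1, which is 3.69%, and 0 of the 24 members did (limma, adjusted p), while 3 member probe sets and 20.5% of all had an unadjusted p under 0.05. Those were Bcl2 1457687_at, Mcl1 1456381_x_at and Bcl2 1443837_x_at, with differences of differences of -2.79, -3.15 and 1.89 on the log2 scale. The count over all probe sets moved to 3045, 3024, 2445 and 2476 without exosome replicates 1 to 4 in turn, with 1, 1, 3 and 4 members. It moved to 0, 0, 3 and 2 without cell replicates 1 to 4 in turn, with 0 members each time. Each of these fits leaves 1 array alone in its batch and group, and that array is assumed to vary like the others. Among cell arrays alone, compared after the data were seen, 14 probe sets differed between batches, which is 0.0693%, and 0 members did, while 9.76% of all and 3 members had an unadjusted p under 0.05. With scaling to hybridisation controls 9174 probe sets did, 9122 of them lower in batch 2, and so did 14 members.

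Other genes of the pathway were counted with 1 probe set for each gene, the one brightest in cells. By that count 3 of the 8 measured members passed as lower, of which Mcl1 and Bid had a bound and Bak1 had none, and 0 passed as higher, beside 49.2% and 11% of 9813 genes tested, with medians of -0.91 for the members and -1.33 for all genes. Picking the probe set by its cell signal can favour a call as lower. By probe set, 37.6% of all tested were lower and 17.9% higher. For the members the pick left out both probe sets called higher, Bcl2 1443837_x_at and Bcl2l11 1456006_at. Of 12 other BCL2 family genes measured, 6 were tested, of which 1 passed as lower, 1 as higher and 4 did not pass, with a median of -0.51. Bnip3, a hypoxia-induced mitophagy receptor, fell to 169.5 ± 68.2 in exosomes, against 782 ± 234 in cells (log2 difference -2.23, adjusted p = 0.000564, limma, at least 2.75-fold lower). Bmf, a BH3-only gene linked to detachment from the matrix, passed as higher at 222 ± 68.1 in exosomes, against 22.2 ± 5.38 in cells (log2 difference 3.09, adjusted p = 0.00012, limma). It was above the floor on 1 exosome array, its probe set 1454880_s_at carries the suffix for shared probes, and its direction turned with scaling to poly-A (-0.21) or hybridisation controls (-0.91). The 6 that were not tested, Bcl2l10, Bok, Hrk, Pmaip1, Bcl2l14 and Bcl2l15, were above the floor on 0 cell arrays. The Bcl2a1 genes, which mast cells are known to induce on activation, share their probe sets with one another and were not named from them.

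The apoptosome and caspase list holds Cycs, Apaf1 and caspases. Not all of these act downstream of released cytochrome c, since caspase-8 cuts BID before that release. Of 7 genes measured 6 were tested, 4 passed as lower and 0 as higher, beside 49.2% and 11% of all genes tested. Their median was -1.59, beside -1.33 for all genes. Cycs, which encodes cytochrome c itself, had 387, 333, 706 and 617 on exosome arrays, against 1888, 2005, 3244 and 3444 on cell arrays. It passed the floor of each exosome array, and its log2 difference was -2.38 (SE 0.34, adjusted p = 0.000177, limma), which did not pass under quantile normalization (-0.36, adjusted p = 0.444). Apaf1, the scaffold that cytochrome c activates, was at 71.5 ± 33.5 in exosomes and 408 ± 107 in cells, with a log2 difference of -2.52 (adjusted p = 0.000424, limma). Casp8 (-1.48) fell at least 2.10-fold, and Casp6 (-1.70) passed as lower with the signals of both groups under the exosome floors, while Casp2 (-0.12) and Casp9 (-0.59) did not pass. Under quantile normalization 2 of the 6 passed as lower, beside 49.7% of all probe sets tested.

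Inhibitors of apoptosis and the proteins that leave the mitochondrion with cytochrome c passed as lower on 9 of 9 genes measured and tested, all entering through the cell arrays. Of all genes tested 49.2% passed as lower. The median was -2.57, beside -1.33 for all genes. Of these 5 had a geometric mean cell signal above that of the exosome floors and so a bound (Xiap, Birc3, Birc5, Birc6 and Aifm1). Single cell signals could still lie under a floor. Birc6, with a bound of 1.11-fold, had cell signals of 212, 247, 341 and 503. Aifm1, with a bound of 1.26-fold, was at 280 on cell replicate 1, under the floor of 317 of exosome replicate 4. For the other 4 (Birc2, Diablo, Htra2 and Endog) the exosome level is known only to lie under floors higher than the mean cell signal. Birc5 (survivin), needed for cell division, was at 29.8 ± 12.4 in exosomes and 1391 ± 367 in cells, a log2 difference of -5.40 (adjusted p = 2.65e-06, limma) and at least 4.90-fold lower. Birc3, a ubiquitin ligase of tumour necrosis factor signalling, was at 64.7 ± 62.7 in exosomes and 606 ± 84.4 in cells, with a log2 difference of -3.59 (adjusted p = 0.000407, limma). All 9 were called lower under each of the 6 scalings, under which 37.6% to 94.4% of all probe sets tested were called lower.

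Of the death receptor arm, which leads to Bid, 7 genes were measured and 3 tested, of which 1 fell and 2 did not pass. The median was -1.10, beside -1.33 for all genes tested, of which 49.2% passed as lower. Tradd, an adaptor of tumour necrosis factor receptor 1, was at 119.8 ± 46.9 in exosomes and 397 ± 54.7 in cells, with a log2 difference of -1.76 (adjusted p = 0.00158, limma). Fas and Fasl were above the floor on 1 and 0 cell arrays. Of 9 upstream regulators and partners 8 passed as lower and 0 as higher, beside 49.2% and 11% of all genes tested, and 1 did not pass. The median was -3.43. A bound could be given for 4 of the 8, and 3 (Vdac2, Ywhaz and Ywhab) were above the floor on some exosome arrays. Bag1, a co-chaperone that binds BCL2, was at 55.4 ± 44.6 in exosomes and 1063 ± 241 in cells, at least 3.77-fold lower (log2 difference -4.45, adjusted p = 4.36e-05, limma). Vdac1, the channel of the mitochondrial outer membrane, was at 119 ± 62.3 in exosomes and 2262 ± 529 in cells, at least 8.02-fold lower (log2 difference -4.29, adjusted p = 6.76e-06, limma). Those 8 include Huwe1, a ubiquitin ligase of MCL1, at -3.12 and Usp9x, a deubiquitinase of MCL1, at -1.04, Usp9x with cell signals under the exosome floors. The 14-3-3 genes Ywhaz and Ywhab, whose proteins bind BAD, were at -3.43 and -3.46 and passed the floor of 3 and 2 exosome arrays.

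**Figure D4:**
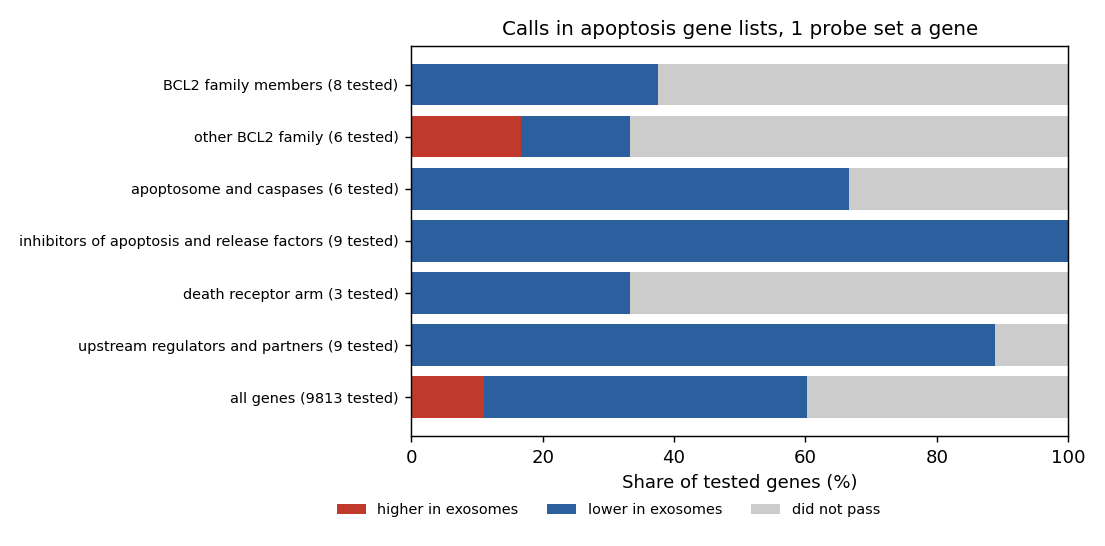
Share of tested genes (percent) called higher in exosomes, called lower in exosomes or not passing, in the BCL2 family members, 5 lists of apoptosis genes and all 9813 genes tested, with 1 probe set for each gene. That probe set was the one brightest in cells, a pick that can favour calls as lower. Of the BCL2 family members 3 of 8 were lower and 0 higher, of inhibitors and release factors 9 of 9 were lower, and of all genes 49.2% were lower and 11% higher.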

How the data were processed

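RNA was measured on Affymetrix Mouse430_2 arrays, 4 of exosomes and 4 of cells. The authors deposited intensity values per probe set on a linear scale, and the submitters' processing notes name GCOS (software of the array's maker) without a version. The method that combined probes into a probe set, like any background step, is not given in the sources used here. Each array has a 2% trimmed mean of 100, and the table's median is 41.8.

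Of 45101 probe sets 64 are controls. Of the rest 34945 carry 1 gene symbol, 932 several and 9160 none, and only the first were named; 34741 matched mouse RefSeq by gene ID. The floor is the 95th percentile of 146 background probe sets (99th as an alternative). Groups were compared on log2(signal + 4), a scale that understates changes of dim probe sets, with limma 3.58.1 under R 4.3.3, using a variance trend and Benjamini-Hochberg adjustment over all probe sets tested. The fit was tested on simulated data of this comparison over 20199 probe sets. It recovered 2%, 38%, 76% and 90% of log2 changes of 1, 2, 4 and 6 (50 probe sets each). Of its 129 calls 26 were of unchanged probe sets. Far more were called in the real data, 7586 lower and 3609 higher. The adjustment is stricter where few probe sets change, so these recovery rates do not give the sensitivity of the real comparison. A probe set that does not pass may still differ. A bound was given where a probe set was under the floor on every exosome array and the geometric cell mean exceeded that of the floors. Batches are the hybridisation days in the file headers.

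The members, lists and tests were chosen with earlier results of these data known. Named were all members, in each list up to 2 genes for each direction with the largest differences among calls whose groups do not overlap, and the 3 genes most like the brightest member probe set. Casp2, Casp6, Casp8, Casp9, Huwe1, Usp9x, Ywhaz, Ywhab, Fas, Fasl and the undetected BCL2 relatives were named after their values were seen. Alternatives were 5 other scalings, other floors, pseudocounts of 1, 16 and 64, no variance trend, batch and replicate blocks, each batch alone and each array left out. The 5 other scalings were also run on the pathway lists, which was chosen after seeing the data.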

Additional observations from a re-analysis of the deposited data

Results flagged for a closer look

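In 4 of 56 groups of 4 arrays 1 signal stood apart from the other three by the Dixon criterion, which marks about 1 group in 20 by chance. On Mcl1 1416880_at cell replicate 4 had the lowest cell signal, 463, and on Mcl1 1448503_at the same array had the highest, 1206. On Bak1 1418991_at exosome replicate 4 had the highest exosome signal, 72.3, and on Bak1 1425716_s_at, which was not tested, cell replicate 2 had the highest cell signal, 24.4.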

How the results depend on the processing

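The 6 Mcl1 probe sets were lower in exosomes under every alternative run, and each passed except 1416881_at when each signal below its floor was raised to that floor (-0.22). Member probe sets called lower numbered 9 as deposited and 9 to 10 with 1 array left out, and those called higher numbered 2 as deposited and 0 to 3 with 1 array left out. Over all probe sets tested, 7586 were lower and 3609 higher, and 6692 to 7708 lower and 2873 to 3743 higher with 1 array left out. With scaling to hybridisation controls 24 members were lower and 0 higher, beside 19077 and 259 of all, and to poly-A controls 21 and 0, beside 15995 and 300. Members called higher were 0 with quantile normalization (1563 of all) and with the background median subtracted (1623 of all). They were 1 with scaling to probe sets past all 8 floors, 1 with the 99th percentile floor (1704 of all), 6 with no filter (26587 of all), 0 within batch 1 and 1 within batch 2. With low signals raised to the floor, 6 members were lower and 15 higher, beside 4251 lower and 13652 higher of all. The rise in calls as higher follows from the higher exosome floors. The 99th percentile floor left 0 exosome readings above it. The count of members whose difference changed between batches was 0, and 0 to 4 with 1 array left out.

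Directions that turned were nearly all of dim probe sets, and the cause was not tested beyond the scaling itself. With the background median subtracted the log2 differences were -2.17, -0.92 and -1.23 for Bcl2 1422938_at, 1437122_at and 1440770_at. They were -2.39 and -0.37 for Bcl2l1 1420887_a_at and 1420888_at, and -1.96, -0.64 and -0.91 for Bcl2l11 1435449_at, 1456005_a_at and 1456006_at. Quantile normalization gave these 8 probe sets, in that order, -1.11, -0.72, -0.35, -1.81, -0.20, -1.65, -0.34 and -0.65. Scaling to hybridisation controls gave them -2.63, -3.48, -1.69, -2.24, -3.21, -2.46, -3.69 and -1.72, and also turned Bcl2 1443837_x_at (-2.35), Bbc3 1423315_at (-3.36) and Bmf (-0.91). Scaling to poly-A controls gave them -1.98, -2.82, -1.15, -1.97, -2.54, -2.04, -2.96 and -1.24, and turned the same other three, to -1.58, -2.57 and -0.21. Within batch 1 the values were -0.38 for Bcl2 1422938_at, -0.18 for Bcl2l1 1420887_a_at, 0.20 for Bid 1447873_x_at, and -0.031 and -0.45 for Bcl2l11 1435449_at and 1456005_a_at.

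Setting low signals to the floor turned Bcl2 1457687_at (0.17), Bak1 1418991_at (0.85), Bid 1447873_x_at (2.94) and 1448560_at (0.32), Bad 1416582_a_at (0.83) and 1416583_at (0.90), and Bcl2l11 1435448_at (1.74). Bid 1447873_x_at was at 0.059 with pseudocount 16 and 0.10 with pseudocount 64. With 1 array left out the ranges that crossed 0 were -0.63 to 0.076 for Bad 1416583_at, -0.40 to 0.58 for Bcl2l1 1420887_a_at, -0.36 to 0.80 for Bcl2l11 1435449_at, -0.15 to 0.44 for Bcl2l11 1456005_a_at and -0.60 to 0.40 for Bid 1447873_x_at.

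The labels number the replicates without stating that same-numbered samples are pairs. Same-numbered exosome and cell arrays had deviations from their group means that correlated at -0.02, -0.03, -0.07 and 0.01. Since only 4.01% to 8.38% of probe sets were above the floor on exosome arrays, these low correlations cannot show whether samples were paired. With the replicate number as a block 9 members were lower and 2 higher, beside 7422 and 3335 of all, with Bcl2 1440770_at passing (adjusted p = 0.0266) and Bcl2 1443837_x_at not (adjusted p = 0.0561). Signal over background limits these data on the exosome side, where 7 member probe sets had a geometric mean cell signal above that of the exosome floors. Of these, Mcl1 1416881_at had single cell signals of 283 and 294, under the floor of 317 of exosome replicate 4.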
